A study of Mus musculus with 6 samples.

Results

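The genes described here are 38 contractile and cytoskeletal genes of the mouse: the actins, the calponin family, the myosin chains, the tropomyosins, the proteins that cross-link actin or tie it to adhesions, and the serum response factor SRF with its cofactors. They are 38 of the 55471 genes listed in an RNA sequencing study of endosteal mesenchymal stromal cells, a stromal population found at the inner bone surface. They were selected on measured RPKM: 1 library, cKO replicate 3, departs in them from cKO replicates 1 and 2. That contrast, which spreads the cKO group, is therefore given as a description, with no test.

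The study has 3 libraries labelled Bap1 cKO (Prx1-cre;Bap1fl/fl), in which Cre recombinase driven by the limb mesenchyme promoter Prx1 meets a floxed Bap1 allele, and 3 labelled Bap1 WT (Bap1fl/fl). Both groups carry the floxed allele and are C57BL/6J; the labels name Cre in the cKO group only, and ages are not given in the sources used here. Bap1 encodes a deubiquitinase that acts on histone H2A. Values are RPKM, read density scaled to gene length and library size, so levels of different genes can be set side by side.

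SRF is a transcription factor that binds the CArG box. In textbook accounts it works with cofactors of 2 kinds. Myocardin and the MRTF proteins, which are held in the cytoplasm by free actin monomers, drive contractile and cytoskeletal genes, while the ternary complex factors of the Elk family drive immediate early genes such as Fos and Egr1. In stromal cells the contractile programme is known from myofibroblasts and pericytes, for which the smooth muscle actin Acta2 is the usual marker.

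Bap1 itself had 28.27, 25.16 and 22.99 RPKM in cKO replicates 1 to 3 and 22.8, 22.72 and 24.01 RPKM in the WT libraries (limma Benjamini-Hochberg adjusted p = 0.29). A value over the whole gene cannot show whether floxed exons were removed, so it does not check the labels. The groups are therefore the libraries labelled cKO and the libraries labelled WT. The spacing of low values gave estimated depths of about 13000000, 14300000 and 22100000 fragments in cKO replicates 1 to 3 and 13200000 to 14900000 in the WT libraries. Across the 12223 genes tested, cKO replicate 3 had a Pearson's r of 0.948 to 0.961 with the other cKO libraries and 0.822 to 0.824 with the WT libraries, where cKO replicates 1 and 2 had 0.757 to 0.765. These r values are across genes, which are no replicates, and only describe the libraries. Of 10 mesenchymal stromal markers, of which Col1a2, Col1a1 and Cxcl12 were highest, the summed RPKM was 136 to 221 in the cKO libraries and 2321 to 2469 in the WT libraries. By limma 7 of the 10 were lower (26.5% of all tested genes), Pdgfra was higher (13.4 ± 5.34 RPKM in the cKO libraries and 7.56 ± 0.726 RPKM in WT, SD, n = 3 each; adjusted p = 0.0451), and Prrx1 and Nt5e did not pass. In bulk samples fewer cells of a type and less RNA per cell cannot be told apart. Nothing in the labels ties each library to its own animal or culture, so a p-value here reflects the spread among these samples alone, which may be technical.

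The reference promoters show which of these genes carry the DNA element that SRF binds. A CArG box was searched as a pair of C bases, 6 A or T bases and a pair of G bases, which reads the same on both strands, in the 300 bases from 250 before to 50 after each start. RefSeq promoters of build GRCm38.p6 were matched for 33 of the 38 genes. Actb, Actg2, Myh11, Myocd and Tagln had no matched promoter and were not searched. An exact box stood in 9 of the 33 genes (27.3%), against 1.81% of the 27025 genes with a promoter in that table. Allowing 1 mismatch, 17 of 33 (51.5%) had a match, against 23.8% of all genes in the table. Many of these genes were listed as SRF targets, so this is a description of the list, and a match is not evidence of binding. The stretches below are shown because their genes carry the results that follow. Capitals mark the box, each sequence runs 5′ to 3′ on the strand of its gene, and the distance is from the start site to the first base of the box.
Srf, chr17:46556225-46556254, minus strand, 82 bases before the start: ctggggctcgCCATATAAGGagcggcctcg
Acta1, chr8:123894829-123894858, minus strand, 73 bases before the start: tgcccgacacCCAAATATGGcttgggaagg
Actg1, chr11:120348566-120348595, minus strand, 90 bases before the start: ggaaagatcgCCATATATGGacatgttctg
Cnn2, chr10:79988534-79988563, plus strand, 56 bases before the start: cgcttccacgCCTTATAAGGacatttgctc
Myl9, chr2:156775293-156775322, plus strand, 161 bases before the start: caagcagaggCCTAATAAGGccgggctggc
Vcl, chr14:20929161-20929190, plus strand, 227 bases before the start: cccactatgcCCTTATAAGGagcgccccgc
Fhl2, chr1:43163973-43164002, minus strand, 31 bases before the start: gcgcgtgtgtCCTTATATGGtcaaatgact
Fhl1, chrX:56779571-56779600, plus strand, 102 bases before the start: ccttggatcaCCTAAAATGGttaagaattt
Myl6 also had an exact box, and Srf and Fhl2 each had a further one. Acta2 had no exact box in its window and 2 that match at all but 1 base, of which the more distant is shown because Acta2 leads the results:
Acta2, chr19:34255438-34255467, minus strand, 84 bases before the start: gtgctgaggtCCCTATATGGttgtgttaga
The genes with an exact box did not share 1 pattern in the libraries: as the values below show, Myl9, Cnn2, Fhl2 and Acta1 were far lower in cKO replicates 1 and 2 than in WT, Actg1 was not lower, and Fhl1 was higher in every cKO library.

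A mean of at least 1 RPKM was reached by 35 of the 38 genes, and only these entered the test. In cKO replicates 1 and 2 the values of 32 of the 35 lay below all 3 WT values, where 34.5% of all tested genes did. In cKO replicate 3 the picture was split. It lay above both other cKO libraries in 33 of the 35 genes (38.7% of all tested genes), and among the 35 it stood above the whole WT range in 13, within it in 1 and below it in 21. Taking the 3 cKO libraries together, 21 of the 35 had every cKO value below every WT value (29.8% of all tested genes), 3 had every cKO value above (39.2%), and in 11 the groups overlapped (31%).

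**Figure D1:**
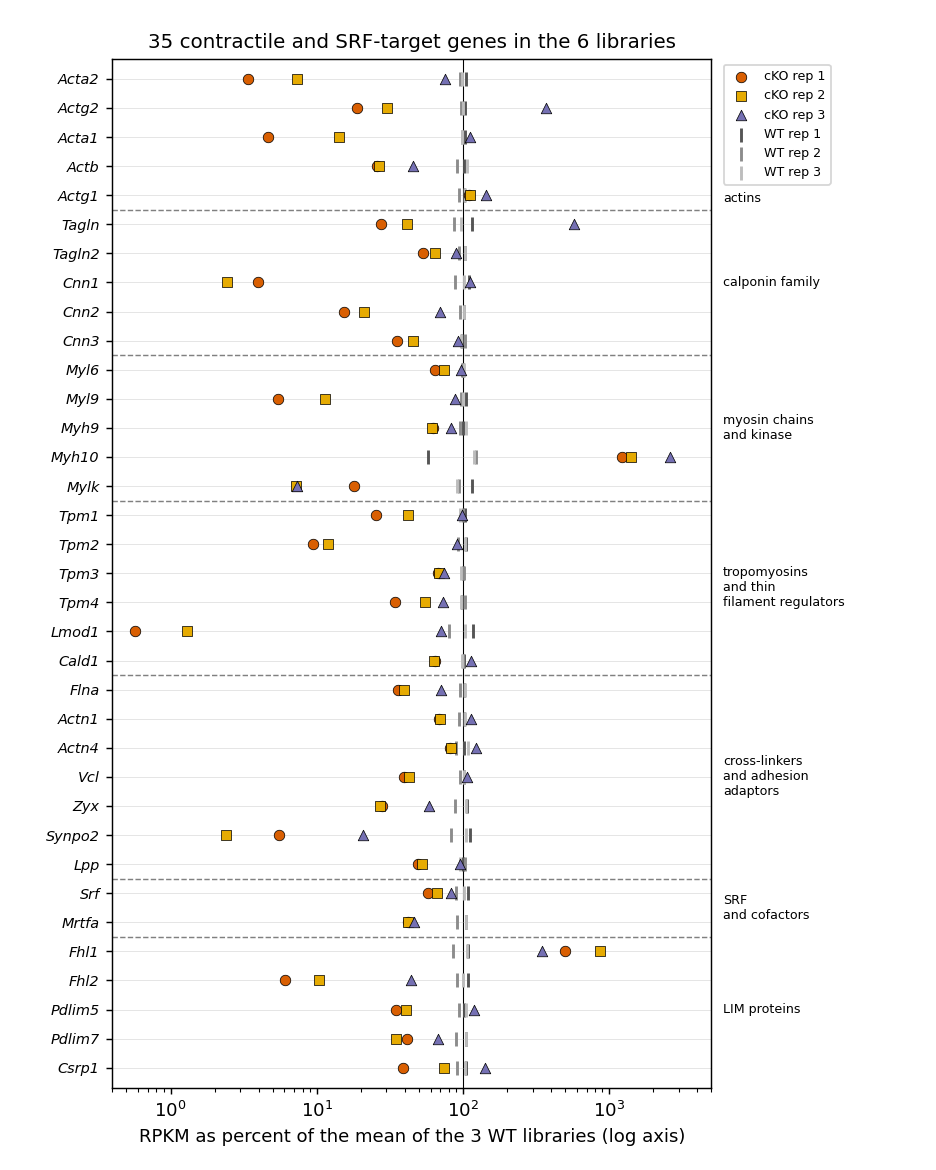
RPKM of each of the 35 tested genes in each library, as a percent of the mean of the 3 WT libraries, on a log axis; circles, squares and triangles are cKO replicates 1, 2 and 3, and grey bars are the WT libraries. The circles and squares lie left of the WT bars in 32 of the 35 genes, while the triangles spread from 7.31% of WT (Mylk) to 2603% (Myh10).

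By limma on log2(RPKM + 1), 17 of the 35 were lower and 2 higher in the cKO libraries (Benjamini-Hochberg adjusted p under 0.05 over all genes), where 26.5% of all tested genes were lower and 34.7% higher, 61.2% in all. Without cKO replicate 3, 32 were lower and 2 higher, against 29.7% and 36.8% of all genes; without WT replicate 1, 2 or 3 the numbers lower were 10, 11 and 11. The median log2 difference of the 35 was -0.92, or -1.36 when cKO replicate 3 was left out; over all tested genes it was 0.09 either way. Since the genes were chosen for the spread within the cKO group, which enters the test, these counts are not read as a result about the list. The same holds for the p-values of single genes of the 35 below. Those with all libraries include the spread that the choice used, also where a gene did not pass. Those without cKO replicate 3 leave out the very library that the choice rests on. Both kinds are a description. Of the 19 calls, 12 held under every alternative setting that could be run for them: Actb, Mylk, Myh9, Myh10, Tpm3, Flna, Zyx, Synpo2, Mrtfa, Fhl1, Fhl2 and Pdlim7.

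The WT libraries were close to each other in these genes. The median coefficient of variation over the 3 WT libraries was 5.39% for the 35, and 7.56% over all tested genes. In the cKO libraries the median SD of log2(RPKM + 1) was 0.55 for the 35 and 0.19 over all tested genes, and the first of these values is what the choice of genes used. Between the other pair of cKO libraries, replicate 2 was above replicate 1 in 28 of the 35 genes (52.1% of all tested genes).

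The order of levels in the WT libraries gives the scale of the programme. The essential light chain Myl6 was highest at 3042 ± 51.1 RPKM (mean ± SD, n = 3 libraries, as in all means below). The cytoplasmic actins Actg1 and Actb followed at 2591 ± 129 and 2520 ± 203 RPKM, with overlapping values, and then Acta2 at 2034 ± 102, Tpm1 at 1113 ± 43.5 and Tpm4 at 932 ± 30.5 RPKM. All 38 genes together made up 1.23%, 1.41% and 2.45% of the summed RPKM in cKO replicates 1 to 3, and 2.36 to 2.55% in the WT libraries. The share in cKO replicate 3 thus lay within the WT range, and those of cKO replicates 1 and 2 lay below it.

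Actins form the filaments. Acta2 (chromosome 19, 34241090 to 34255590, GRCm38) encodes the smooth muscle alpha actin. It had 68.78, 149.26 and 1532.34 RPKM in cKO replicates 1 to 3, against 2145.34, 1944.95 and 2012.09 RPKM in the WT libraries. All cKO values lay below all WT values, but cKO replicate 3 was at 75.3% of the WT mean where the other cKO libraries were at 3.38% and 7.34%. The log2 difference was -3.01 ± 1.05 (SE; limma adjusted p = 0.0432). The call was lost without cKO replicate 1 or 2 or any 1 of the WT libraries (adjusted p = 0.1 to 0.113), and the difference was -4.31 (6.64e-05) without cKO replicate 3.

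The muscle actins of low level did not keep Acta2's order. Actg2 (chromosome 6, 83512905 to 83536265), the smooth muscle gamma actin, had 1.7, 2.74 and 33.22 RPKM in cKO replicates 1 to 3, against 9.29, 8.73 and 9.06 RPKM in WT. Acta1, the skeletal muscle alpha actin, had 0.41, 1.25 and 9.94 RPKM in the cKO libraries, against 9.13, 8.66 and 8.75 RPKM in WT. In both genes cKO replicate 3 was above every WT library and the other cKO libraries were below every WT library, so the groups overlapped and neither passed with all libraries (limma adjusted p = 0.647 for Actg2 and 0.0906 for Acta1). Without cKO replicate 3 both passed (0.000244 and 0.000146). The muscle actins are close paralogs of each other, and how reads that match several of them were split is uncertain.

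The cytoplasmic actins parted from each other. Actb (chromosome 5, 142903115 to 142906754), the cytoplasmic beta actin, had 648.26, 675.05 and 1150.53 RPKM in the cKO libraries, against 2549.4, 2303.17 and 2706.01 RPKM in WT. Its mean fell 3.06-fold, with a log2 difference of -1.66 ± 0.22 (limma adjusted p = 0.000831). All 3 cKO libraries were below WT, at 25.7%, 26.8% and 45.7% of the WT mean. Actg1 (chromosome 11, 120345690 to 120348542), the cytoplasmic gamma actin, had 2855.38, 2877.15 and 3755.08 RPKM in the cKO libraries, against 2642.79, 2443.93 and 2686.92 RPKM in WT. Its cKO values were all above its WT values, by 0.28 ± 0.12 on the log2 scale, which did not pass (limma adjusted p = 0.0786), nor did it pass without cKO replicate 3 (0.0631).

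**Figure D2:**
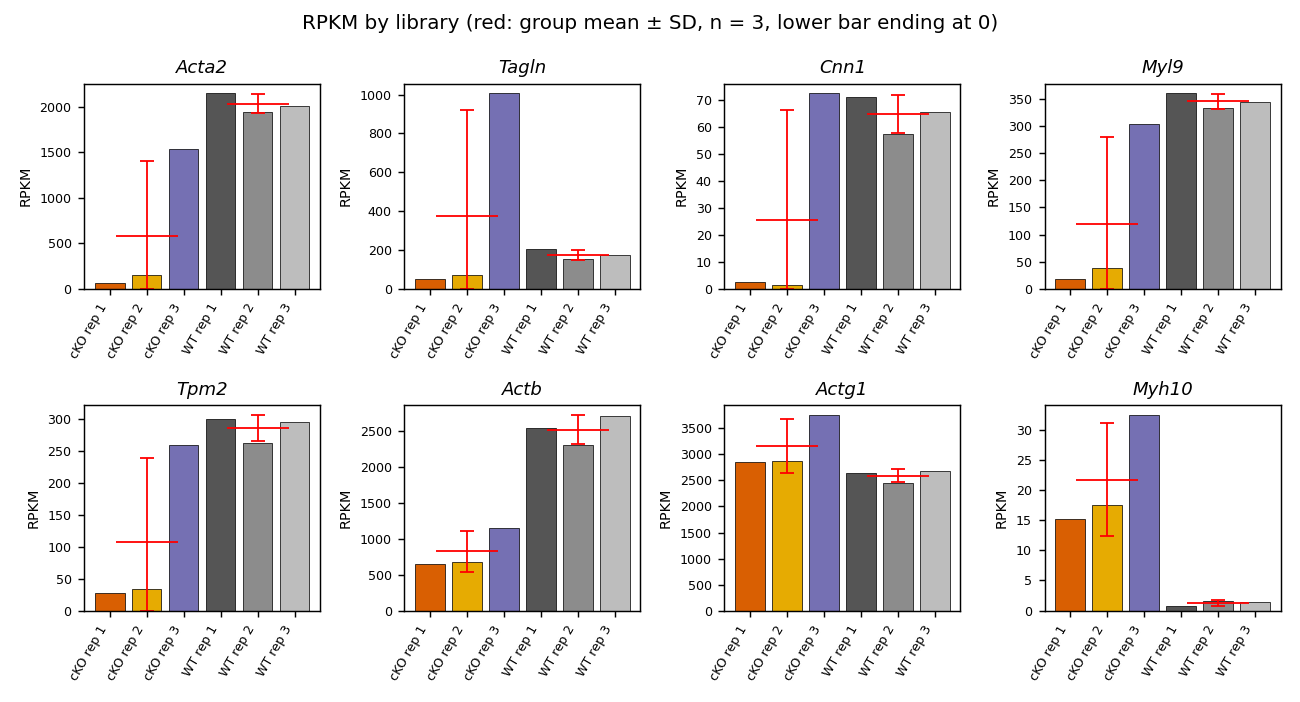
RPKM of 8 genes in each library on linear axes from 0, with cKO replicates 1 to 3 on the left and WT replicates 1 to 3 on the right; red marks give the group mean ± SD (n = 3), with the lower bar ending at 0. In Acta2, Cnn1, Myl9 and Tpm2 the cKO replicate 3 bar is near the WT bars, in Tagln it is far above them, and in Actb it is nearer to the other cKO libraries.

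As a share of the summed actin RPKM, Acta2 made up 1.92%, 4.03% and 23.6% in cKO replicates 1 to 3, against 29.2%, 29% and 27.1% in the WT libraries. Actb made up 18.1%, 18.2% and 17.8% in the cKO libraries, against 34.7%, 34.3% and 36.5% in WT. Its share was thus alike in the 3 cKO libraries, including the 1 that departs in Acta2. Its level was not alike, at 1150.53 RPKM in cKO replicate 3 against 648.26 and 675.05 RPKM in cKO replicates 1 and 2. Actg1 made up 79.9%, 77.6% and 57.9% in the cKO libraries, against 35.9%, 36.4% and 36.2% in WT. For these 3 shares the groups did not overlap, and the exact permutation test, 2-sided, gave p = 0.1, the smallest that 3 against 3 allows (0.243 after Benjamini-Hochberg adjustment over 17 shares). The summed RPKM of the 5 actins was 3575, 3705 and 6481 in the cKO libraries and 6709 to 7423 in the WT libraries.

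**Figure D3:**
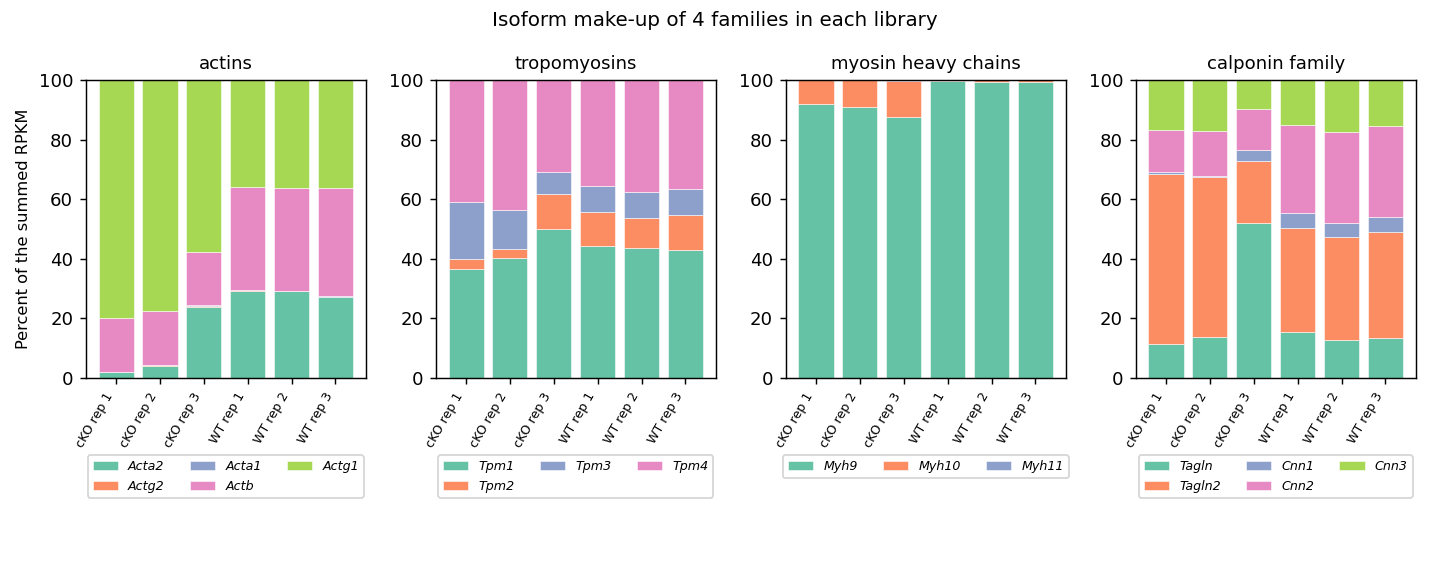
Share of each isoform in the summed RPKM of its family, in percent, for the actins, tropomyosins, myosin heavy chains and calponin family, with cKO replicates 1 to 3 left of WT replicates 1 to 3. The Actb share is 17.8 to 18.2% in all 3 cKO libraries, while the Acta2 share is 1.92% and 4.03% in cKO replicates 1 and 2 and 23.6% in cKO replicate 3; in the calponin family Tagln makes up 51.8% in cKO replicate 3.

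The calponin family binds along actin filaments. Tagln (chromosome 9, 45929619 to 45936058) encodes transgelin, an early smooth muscle marker. It had 48.15, 72.72 and 1006.19 RPKM in cKO replicates 1 to 3, against 203.47, 152.25 and 171.71 RPKM in WT. The cKO replicate 3 value was 572% of the WT mean, and the other cKO libraries were below every WT library. The log2 difference over the 3 cKO libraries was -0.19 ± 1.07 (limma adjusted p = 0.89). Without cKO replicate 3 it was -1.54 (0.000796), and without cKO replicate 1 or 2 it turned positive (0.63 and 0.34).

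Cnn1 (chromosome 9, 22099216 to 22109630), the smooth muscle calponin, had 2.56, 1.58 and 72.35 RPKM in the cKO libraries, against 71.15, 57.36 and 65.48 RPKM in WT. It had the furthest departure of the 35 genes: cKO replicate 3 was just above the WT libraries and the other cKO libraries were at 3.96% and 2.44% of the WT mean. The limma adjusted p was 0.0756 with all libraries and 6.25e-06 without cKO replicate 3. Cnn2, a calponin found outside muscle, had 59.16, 81.51 and 271.54 RPKM in the cKO libraries, against 395.95, 371.01 and 396.89 RPKM in WT. It was lower in all 3 cKO libraries, by 1.81 ± 0.52 on the log2 scale (fold 2.82, limma adjusted p = 0.0216), a call lost without cKO replicate 1 or 2 or any 1 of the WT libraries (0.0569 to 0.065). Cnn3 and Tagln2, the broadly expressed relatives, were lower by 1.74-fold and 1.45-fold (limma adjusted p = 0.0464 and 0.0323), and lost their calls without the same libraries (0.102 to 0.119 and 0.065 to 0.0969). In cKO replicate 3 these relatives were at 91.9% and 89.6% of the WT mean.

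Tagln made up 11.4%, 13.5% and 51.8% of the summed RPKM of the calponin family in cKO replicates 1 to 3, against 15.2%, 12.6% and 13.3% in WT. Its share in cKO replicates 1 and 2 was thus close to that in WT although its level was lower there. The mean share, cKO minus WT, was 11.9 percentage points (exact permutation test, 2-sided, p = 0.8), and -1.21 points without cKO replicate 3. The Cnn2 share was 14%, 15.1% and 14% in the cKO libraries, against 29.5%, 30.6% and 30.6% in WT (p = 0.1, the smallest the exact test allows). As for Actb, the share in cKO replicate 3 was thus close to that in the other cKO libraries. The level was not: Cnn2 had 271.54 RPKM there, against 59.16 and 81.51 RPKM in cKO replicates 1 and 2.

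Myosin chains provide the motor. Myl9 (chromosome 2, 156775420 to 156781658), the regulatory light chain of smooth muscle and non-muscle myosin, had 18.89, 39.13 and 303.35 RPKM in cKO replicates 1 to 3, against 360.35, 333.08 and 344.27 RPKM in WT. All cKO values were lower, with cKO replicate 3 at 87.7% of the WT mean and the other cKO libraries at 5.46% and 11.3%. The limma adjusted p was 0.0543 with all libraries and 9.56e-05 without cKO replicate 3. Myl6, the essential light chain, had 1970.34, 2259.71 and 2931.81 RPKM in the cKO libraries, against 3068.33, 2983.34 and 3074.88 RPKM in WT (limma adjusted p = 0.0569). These values span a far smaller range than those of Myl9.

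The heavy chains went separate ways. Myh9, the major non-muscle heavy chain, had 176.04, 174.04 and 234.73 RPKM in the cKO libraries, against 286.12, 269.42 and 296.5 RPKM in WT. It fell 1.46-fold (limma adjusted p = 0.0083). Myh10 (chromosome 11, 68691559 to 68816632), another non-muscle heavy chain, had 15.22, 17.59 and 32.45 RPKM in the cKO libraries, against 0.72, 1.54 and 1.48 RPKM in WT. It rose by 3.29 ± 0.30 on the log2 scale (limma adjusted p = 0.000178), and its share of the heavy chains was 7.96%, 9.18% and 12.1% in the cKO libraries, against 0.251%, 0.568% and 0.497% in WT. The smooth muscle heavy chain Myh11 was not tested: it had 0.04, 0.03 and 0.43 RPKM in the cKO libraries and 0.04 to 0.06 RPKM in WT, and only the cKO replicate 3 value is above the level that 3 fragments on 1 kilobase would give (0.136 RPKM in that library).

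Mylk, the kinase that activates smooth muscle myosin by acting on its regulatory light chain, did not follow the chains. It had 1.25, 0.5 and 0.51 RPKM in the cKO libraries, against 7.98, 6.58 and 6.36 RPKM in WT. It fell 9.26-fold (log2 difference -2.21 ± 0.20, limma adjusted p = 0.000166), and cKO replicate 3 lay between the other cKO libraries, at 7.31% of the WT mean. Among the 35 genes it is the only one with cKO replicate 3 between them.

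Tropomyosins cover the groove of the filament and set which myosins can bind. Tpm2 (chromosome 4, 43514711 to 43523765), a muscle and fibroblast form, had 26.89, 34.27 and 259.82 RPKM in the cKO libraries, against 299.46, 262.36 and 294.95 RPKM in WT. Tpm1 had 284.35, 470.07 and 1096.99 RPKM in the cKO libraries, against 1152.44, 1120.12 and 1066.42 RPKM in WT. In cKO replicate 3 Tpm2 was just under the WT range and Tpm1 within it, and neither passed with all libraries (limma adjusted p = 0.0526 and 0.0753). Without cKO replicate 3 they did, at 6.13e-06 and 0.000706.

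Tpm3 and Tpm4, the forms of the general cytoskeleton, were lower in every cKO library. Tpm3 had 150.17, 153.08 and 164.9 RPKM in the cKO libraries, against 224.31, 225.69 and 217.17 RPKM in WT (1.43-fold, limma adjusted p = 0.000607). Tpm4 had 319.04, 508.95 and 681.78 RPKM in the cKO libraries, against 925.74, 965.45 and 905.54 RPKM in WT (1.85-fold, adjusted p = 0.016, and 0.0506 and 0.0555 without WT replicate 1 and without WT replicate 2). As a share of the tropomyosins, Tpm2 made up 3.45%, 2.94% and 11.8% in the cKO libraries, against 11.5%, 10.2% and 11.9% in WT, and Tpm3 made up 19.2%, 13.1% and 7.48% in the cKO libraries, against 8.62%, 8.77% and 8.74% in WT. The make-up of cKO replicate 3 was thus nearer to WT in Tpm2, and its Tpm3 share was below the WT range.

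Other thin filament proteins showed the same division by library. Lmod1 (chromosome 1, 135324807 to 135368065), the smooth muscle leiomodin that nucleates actin, had 0.04, 0.09 and 4.94 RPKM in the cKO libraries, against 8.2, 5.59 and 7.19 RPKM in WT. The first 2 values are under the level that 3 fragments on 1 kilobase would give (0.231 and 0.21 RPKM), so no fold is given. The log2 difference was -2.07 ± 0.66 (limma adjusted p = 0.0324), and the call was lost without cKO replicate 1 or 2 or any 1 of the WT libraries (0.0709 to 0.0983). Cald1, caldesmon, had 301.78, 297.92 and 533.1 RPKM in the cKO libraries, against 477.03, 472.16 and 466.88 RPKM in WT, with cKO replicate 3 above and the others below every WT value (limma adjusted p = 0.182).

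Cross-linkers and adhesion adaptors differed in how far cKO replicate 3 stood from WT. Filamin A (Flna), a cross-linker, had 241.7, 264.82 and 475.75 RPKM in the cKO libraries, against 675.16, 639.06 and 689.74 RPKM in WT, and fell 2.04-fold (limma adjusted p = 0.00795). Zyxin (Zyx), an adhesion protein that responds to force, had 56, 54.02 and 117.32 RPKM in the cKO libraries, against 214.77, 176.69 and 208.58 RPKM in WT, and fell 2.64-fold (adjusted p = 0.00482). In Flna and Zyx alike, cKO replicate 3 was lower than every WT library. Synpo2, an actin-binding protein of muscle, had 0.23, 0.1 and 0.86 RPKM in the cKO libraries, against 4.69, 3.47 and 4.35 RPKM in WT (log2 difference -1.92 ± 0.23, limma adjusted p = 0.000557), with cKO replicate 3 at 20.6% of the WT mean.

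In vinculin (Vcl), which links adhesions to actin, cKO replicate 3 was above the WT range. Vcl had 69.59, 74.99 and 188.84 RPKM in the cKO libraries, against 180.2, 169.25 and 178.4 RPKM in WT (limma adjusted p = 0.0927, and 1.93e-05 without cKO replicate 3). The alpha-actinins Actn1 and Actn4 had the same arrangement, with cKO replicate 3 at 114% and 123% of the WT mean and the other cKO libraries below WT (adjusted p = 0.243 and 0.709). Lpp, a relative of zyxin, had 14.55, 15.47 and 27.86 RPKM in the cKO libraries and 28.13 to 30.46 RPKM in WT (adjusted p = 0.0505). The muscle intermediate filament desmin (Des) was not tested, at 0.21, 0.08 and 0.22 RPKM in the cKO libraries and 0.36 to 0.87 RPKM in WT.

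SRF and its cofactors came next, and cKO replicate 3 was above the mean of the other cKO libraries by 0.41 (Srf) and 0.12 (Mrtfa) on log2(RPKM + 1). Srf (chromosome 17, 46548329 to 46556175) had 30.75, 35.58 and 44.15 RPKM in cKO replicates 1 to 3, against 58.19, 48.26 and 54.52 RPKM in WT. It fell 1.46-fold (log2 difference -0.54 ± 0.14, limma adjusted p = 0.0159, and 0.0633 and 0.0546 without WT replicate 1 and without WT replicate 3). Mrtfa (chromosome 15, 81012281 to 81190757), the cofactor that senses actin monomers, had 12.85, 12.92 and 14.13 RPKM in the cKO libraries, against 32.12, 27.78 and 32.2 RPKM in WT. It fell 2.31-fold (log2 difference -1.15 ± 0.09, adjusted p = 0.000114), and cKO replicate 3 was at 46% of the WT mean, close to the other cKO libraries. Myocardin (Myocd), the cofactor of smooth and cardiac muscle, was listed at 0 in all 3 cKO libraries and reached at most 0.03 RPKM in WT.

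LIM domain proteins, several of which shuttle between filaments and nucleus, included genes of opposite direction. Fhl2 (chromosome 1, 43123074 to 43196984) had 10.55, 18 and 75.94 RPKM in the cKO libraries, against 187.73, 157.23 and 173.54 RPKM in WT. It fell 4.96-fold (limma adjusted p = 0.00956; 12.1-fold without cKO replicate 3). Fhl1 (chromosome X, 56731787 to 56793346) had 233.15, 402.76 and 161.63 RPKM in the cKO libraries, against 50.55, 39.94 and 49.91 RPKM in WT. It rose 5.68-fold (log2 difference 2.39 ± 0.31, limma adjusted p = 0.000809). Among the 35 genes it is the only one in which cKO replicate 3 lay below both other cKO libraries, and for this gene it was the cKO library nearest to WT.

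Csrp1, which binds alpha-actinin, had 78.08, 150.21 and 286.61 RPKM in the cKO libraries, against 212.13, 183.77 and 208.22 RPKM in WT, and did not pass (limma adjusted p = 0.424). Pdlim5 had 19.2, 22.29 and 65.37 RPKM in the cKO libraries, against 55.7, 51.55 and 57.27 RPKM in WT (adjusted p = 0.138). In both, cKO replicate 3 was above every WT library. Pdlim7 had 36.33, 30.16 and 59.06 RPKM in the cKO libraries, against 91.86, 77.64 and 92.06 RPKM in WT, and fell 2.08-fold (adjusted p = 0.00692).

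The departure that chose the genes can be placed among all genes as a description. It was taken as log2(RPKM + 1) in cKO replicate 3 minus the mean of cKO replicates 1 and 2. Its median was 0.91 for the 35 genes, with a range from -0.92 (Fhl1) to 4.60 (Cnn1), and 0 over the 12223 tested genes, of which 1% lay above 1.63. Ordered by this value, 9 of the 50 genes furthest above were members: Cnn1, Tagln, Acta2, Myl9, Actg2, Tpm2, Acta1, Lmod1 and Fhl2. In 15 of the 35 genes cKO replicate 3 was at least 1 above both other cKO libraries on that scale, which held for 2.01% of all tested genes. It was at least 1 below both in none of them and in 1.9% of all tested genes.

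**Figure D4:**
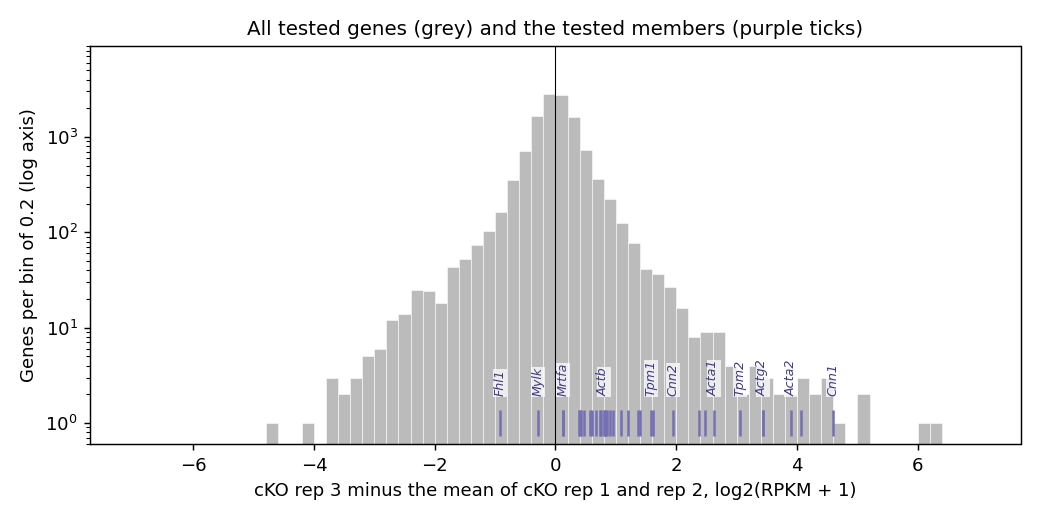
Number of tested genes (grey bars, log axis) by the difference of cKO replicate 3 from the mean of cKO replicates 1 and 2 on log2(RPKM + 1), with the 35 tested genes as purple ticks, some of them named. The grey bars centre on 0 and the ticks run from -0.92 (Fhl1) to 4.60 (Cnn1).

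Other genes that SRF and its cofactors are known to control were read from lists that did not include the 38. These lists and those in the next paragraphs were chosen with earlier results of these data known. Their counts are therefore a description, not separate support. Of 8 tested genes controlled by MRTF together with the Hippo factor YAP, 5 were lower and 1 higher in the cKO libraries by limma, where 26.5% of all tested genes were lower and 34.7% higher. The median log2 difference was -2.01 (0.09 over all genes), and in 4 of the 8 cKO replicate 3 was at least 1 above both other cKO libraries on log2(RPKM + 1), against 2.01% of all tested genes. Ccn2, a matricellular growth factor, had 15.13, 30.87 and 261.55 RPKM in cKO replicates 1 to 3, against 773.27, 523.61 and 728.29 RPKM in WT (adjusted p = 0.0144). Thbs1, thrombospondin, had 26.56, 24.44 and 269.34 RPKM in the cKO libraries, against 1794.23, 1485.02 and 1681.57 RPKM in WT (adjusted p = 0.00323). In both genes cKO replicate 3 was well above the other cKO libraries and below WT, as was Ankrd1, a muscle ankyrin repeat protein, at 7.2, 16.12 and 120.15 RPKM in the cKO libraries and 313.9 to 409.12 RPKM in WT (adjusted p = 0.0102). Tuft1 departed from this, at 2.59, 2.79 and 2.3 RPKM in the cKO libraries and 25.75 to 28.07 RPKM in WT (adjusted p = 3.78e-06). In 3 of the 8 genes, Ccn1, Amotl2 and Tgfb1i1, cKO replicate 3 was above the WT range, as in 6008 of the 12223 tested genes. Amotl2 was the 1 called higher (limma adjusted p = 0.0325).

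The immediate early genes that SRF drives with ternary complex factors showed another arrangement. Of 10 tested, 7 were higher in the cKO libraries by limma, as were 34.7% of all tested genes. All 10 log2 differences were above 0, with a median of 1.35, where the median over all tested genes was 0.09. Fos had 70.69, 42.26 and 33.6 RPKM in cKO replicates 1 to 3, against 1.9, 4.26 and 3.23 RPKM in WT (limma adjusted p = 0.000166). Egr1 had 133.09, 96.12 and 89.28 RPKM in the cKO libraries, against 8.03, 14.29 and 12.85 RPKM in WT (adjusted p = 8.88e-05). In both genes the 3 cKO libraries were all above WT, and cKO replicate 3 was the lowest of them. Over the 10 genes, cKO replicate 3 was above both other cKO libraries in 4, below both in 4 and between them in 2. Dusp1 was called higher and had cKO replicate 3 highest. It had 148.21, 221.75 and 286.8 RPKM in the cKO libraries, against 49.77 to 61.82 RPKM in WT (limma adjusted p = 0.00056). Egr3 and Egr2 did not pass and also had cKO replicate 3 highest, at 5.39 and 3.04 RPKM. Of 6 other cofactors tested, 2 were lower and 2 higher by limma (26.5% and 34.7% of all tested genes). Elk3 and Mrtfb were lower and Elk4 and Scai, an inhibitor of MRTF, were higher (limma adjusted p = 0.000536, 0.00606, 0.000846 and 0.00046).

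Of 7 smooth muscle genes outside the 38 that were tested, 2 were lower and 1 higher (26.5% and 34.7% of all tested genes), and cKO replicate 3 was at least 1 above both other cKO libraries on log2(RPKM + 1) in 5 (2.01% of all tested genes). Mustn1, a small protein of the musculoskeletal system, had 1.07, 2.49 and 2.14 RPKM in the cKO libraries, against 9.34, 7.03 and 8.98 RPKM in WT (limma adjusted p = 0.000742), with cKO replicate 3 between the other cKO libraries. Nexn, an actin-binding protein of muscle, had 1.48, 1.89 and 11.12 RPKM in the cKO libraries, against 11.09, 13.82 and 13.35 RPKM in WT (adjusted p = 0.0467). Jph2, a junctophilin of muscle, went its own way, at 2.66, 1.08 and 20.8 RPKM in the cKO libraries and at most 0.06 RPKM in WT (adjusted p = 0.0395). A further 6 listed genes, among them Kcnmb1, Casq2 and Itga8, were under the minimum of the test.

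**Figure D5:**
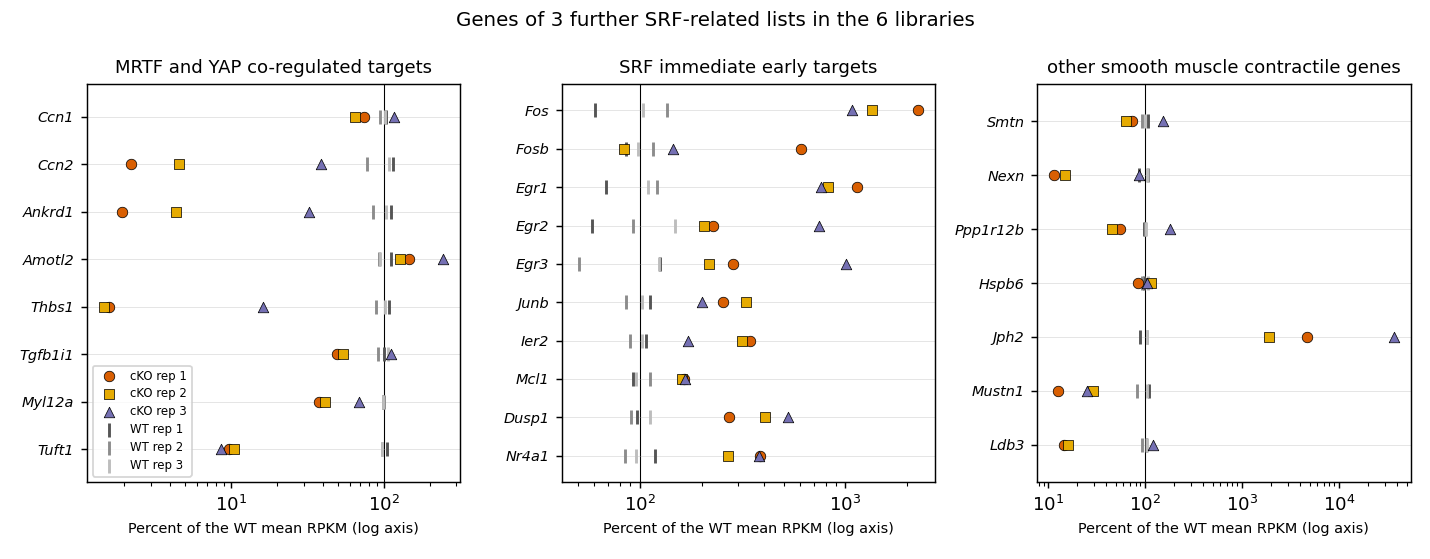
RPKM of tested genes of 3 further lists in each library, as a percent of the mean of the 3 WT libraries, on a log axis; symbols are as in the plot of the 35 genes. Ccn2, Ankrd1, Thbs1 and Nexn have cKO replicate 3 between the other cKO libraries and WT or at the edge of WT, while the immediate early genes lie right of WT in nearly every cKO library.

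Neighbouring parts of the actin system held genes moving both ways. Of 12 focal adhesion genes 6 were lower and 2 higher in the cKO libraries by limma, where 26.5% of all tested genes were lower and 34.7% higher. Tns1, tensin, had 0.12, 0.2 and 0.41 RPKM in the cKO libraries, against 17.81, 15.53 and 17.44 RPKM in WT (adjusted p = 4.34e-06), and Pxn, paxillin, had 78.94, 62.76 and 57.02 RPKM in the cKO libraries, against 17.37, 17.85 and 19.29 RPKM in WT (adjusted p = 6.98e-05). Of 12 genes of actin nucleation and turnover 8 were lower and 2 higher, to be read against the same shares of all genes (26.5% and 34.7%). Gsn, gelsolin, had 85.9, 120.64 and 79.23 RPKM in the cKO libraries, against 509.86, 475.81 and 494.44 RPKM in WT (adjusted p = 4.78e-05). In these lists cKO replicate 3 was at least 1 above both other cKO libraries on log2(RPKM + 1) in 1 gene, Tmsb4x, thymosin beta 4, which binds actin monomers, at 157.48, 147.33 and 596.04 RPKM in the cKO libraries and 508.89 to 564.62 RPKM in WT.

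Markers of pericytes and muscle, which also make these proteins, were low in every library, and their sums were highest in cKO replicate 3. Of 8 pericyte and smooth muscle markers, Rgs5 was listed at 0 in all cKO libraries and at 0.18 to 0.29 RPKM in WT, Higd1b was at 0 in all 6, and the summed RPKM of the list was 5.21, 6.88 and 9.53 in cKO replicates 1 to 3 and 4.28 to 4.85 in WT. Most of that sum was Cspg4 (3.28, 5.2 and 5.65 RPKM in the cKO libraries, at most 0.04 RPKM in WT) and Mcam (1.31, 1.18 and 3.2 RPKM in the cKO libraries, against 3.58 to 3.89 RPKM in WT). Of 14 skeletal and cardiac muscle markers 8, among them Myod1, Ckm and Ttn, were at 0 in all 6 libraries. The list summed to 4.35, 2.43 and 6.02 RPKM in the cKO libraries and 1.62 to 3.14 RPKM in WT. Tnnt3 was higher, at 2.91, 1.28 and 3.46 RPKM in the cKO libraries and at most 0.5 RPKM in WT (limma adjusted p = 0.00474). Mylpf, at 0.73 to 2.35 RPKM in the cKO libraries and 1.02 to 3.08 RPKM in WT, did not pass. Endothelial markers summed to at most 0.81 RPKM, haematopoietic markers to at most 9.65 and megakaryocyte markers to at most 6.86 RPKM in any library. Cd68 made up most of the haematopoietic sum and Itga2b most of the megakaryocyte sum, and both were higher in the cKO libraries. Cd68 had 4.33 to 7.54 RPKM there and 1.69 to 2.66 RPKM in WT (limma adjusted p = 0.00344). Itga2b had 3.6 to 6.86 RPKM there and 2.16 to 2.63 RPKM in WT (limma adjusted p = 0.0187). Gp1bb of the megakaryocyte list went the other way and was under the minimum of the test. It had 0, 0 and 0.01 RPKM in cKO replicates 1 to 3 and 1.3 to 1.48 RPKM in WT. The 8 epithelial markers did not move together. Pax8 had 180.94, 243.21 and 124.15 RPKM in the cKO libraries and at most 0.21 RPKM in WT, and made up most of the list's sum in the cKO libraries (131.53 to 247.48 RPKM). Krt19, a keratin, had 1.67, 1.74 and 5.79 RPKM in the cKO libraries and 11.73 to 13.73 RPKM in WT (limma adjusted p = 0.0038), and made up most of the sum in WT (12.79 to 14.61 RPKM). Krt8 was listed at 0 in the cKO libraries and at 0.66 to 0.79 RPKM in WT. Whether other cells have a part in the departure was not tested beyond these values.

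The level of other WT genes in cKO replicate 3 is given as a description. Of genes with a WT mean of at least 20 RPKM, 39 stood under 0.5% of that mean in both cKO replicates 1 and 2. In cKO replicate 3 they stood at a median of 0.358% of the WT mean, with 23 of the 39 under 0.5% and 1 above 5% (Rpl39-ps, named after its value was seen). The contractile genes with the widest departures stood there at 43.9% (Fhl2) to 572% (Tagln) of the WT mean. Those genes were chosen because cKO replicate 3 departs, and the 39 for near absence from cKO replicates 1 and 2. The gap between the 2 sets thus follows in part from how they were chosen, and its cause was not tested.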

How the data were processed

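Polyadenylated RNA of 6 libraries was read as 151 bp pairs after stranded library preparation, per the labels' protocols. The authors deposited RPKM values with 2 decimals for 55471 Ensembl genes, 1 column per library. Per the submitters' processing notes, GRCm38 was used with RSEM 1.3.1, STAR 2.7.1a and cutadapt 2.8. The annotation and the use of strand in counting are not given in the sources used here. Symbols and coordinates came from GENCODE M21 (GRCm38), which held 55144 of the identifiers. Acta1, Tagln, Vcl, Mrtfa and Lpp overlap other annotated genes that reached 1 RPKM, so some of their reads may be shared.

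Values as log2(RPKM + 1) were fitted with limma 3.58.1 (R 4.3.3; 2-sided, variance trend, genotype as the only term). The 12223 genes whose mean reached 1 RPKM entered, and Benjamini-Hochberg adjustment ran over all of them. Differences on this scale understate those of low genes; folds in the text are ratios of mean RPKM. For depth, single-transcript genes of 800 to 3500 bp, less 150 bp, were used. Of their low values, 80.9 to 91% came within 0.2 of whole fragments (40% by chance). Levels of 3 fragments cover counting error only. The fit was tested on simulated data with 200 of 12223 genes changed by a known amount, in 10 simulations of each size. Genes of low level aside, it recovered 0% of changes of 0.5 on the log2 scale, 72.4% of 1 and 93.7% of 2. At changes of 1 and 2, 5.91% and 5.01% of its calls were false. In the data 61.2% of genes were called, so these shares need not carry over. Python 3.11.15 ran numpy 2.4.6, scipy 1.17.1, pandas 2.3.3 and matplotlib 3.10.9.

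The genes and lists were chosen with earlier results of these data known. All 38 genes are named. From each further list up to 4 tested genes with the smallest p could be named, or, for cell markers, those of highest level; outside the lists, the 10 genes furthest above and the 10 furthest below in cKO replicate 3 could be named. Some of these items are not reported here. Ccn1, Ccn2, Amotl2, Tgfb1i1, Egr2, Egr3, Tmsb4x, Kcnmb1, Casq2, Itga8, Rgs5, Higd1b, Pdgfra, Prrx1, Nt5e, Myod1, Ckm and Ttn fall outside that rule and were named after their values were seen. Alternatives were other pseudocounts, minima, scalings, sample weights, no variance trend, a replicate block and each library left out.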

Additional observations from a re-analysis of the deposited data

How the results depend on the processing

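With all libraries 17 of the 35 genes were lower and 2 higher. The number lower was 28 with sample weights, and 10 to 32 when each library was left out in turn; the number higher was 2 each time a library was left out. Over all genes, 3504 to 4483 were higher and 2626 to 3623 lower when a library was left out. The log2 difference changed sign in 4 genes, none of which passed with all libraries. Without cKO replicate 1 it was 0.63 for Tagln, 0.17 for Actg2, 0.046 for Csrp1 and 0.02 for Actn4, and without cKO replicate 2 it was 0.34 for Tagln and 0.013 for Actn4. With each library left out in turn the differences ran from -1.54 to 0.63 for Tagln, -1.66 to 0.17 for Actg2, -0.89 to 0.046 for Csrp1 and -0.27 to 0.02 for Actn4. The share of Tagln in the calponin family, cKO minus WT, ran from -1.21 to 19 percentage points with each library left out, that of Acta2 in the actins from -25.4 to -14.6, that of Tpm2 in the tropomyosins from -8 to -3.57 and that of Myh10 in the heavy chains from 8.13 to 10.2. For these values the cause was not tested.

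The replicate numbers are shared between the groups, and nothing in the labels says whether they pair the libraries. Across genes, the deviations of same-numbered libraries from their group means had correlations of -0.017, 0.050 and -0.019. With 3 libraries per group these values cannot settle it. With the replicate block, Tpm2 and Myl9 passed (adjusted p = 0.038 and 0.0422) and no other call among the 35 changed. Scaling by median of ratios moved the median log2 difference of all genes to -0.01, from 0.09 as deposited, and added calls of Tpm2, Myl9, Lpp and Myl6, as did TMM. The balance of all genes turned with it: 4237 were higher and 3239 lower as deposited, 3616 and 3771 by median of ratios, and 3678 and 3721 by TMM. Calls were lost without a minimum for Acta2, Tagln2, Lmod1 and Cnn3, without the variance trend for Acta2 and Cnn3, and with equal totals for Cnn3; Lpp passed with a minimum mean of 5. Pseudocounts of 0.1 and 0.5 changed no call among the 35. Depth limits Myh11, Myocd, Des and the low values of Lmod1 and Synpo2, which lie near or under the level of 3 fragments on 1 kilobase.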

Other observations

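Outside the lists, the protein-coding genes in which cKO replicate 3 stood furthest above both other cKO libraries are given first. Igfbp2, an IGF-binding protein, had 46.98, 30.97 and 514.06 RPKM in cKO replicates 1 to 3 and no more than 0.12 RPKM in the WT libraries, so that all cKO libraries were above WT. Mgp, Csf1, Ccl7 and Angptl2 had cKO replicate 3 above the other cKO libraries and below WT, at 73.42, 95.67, 52.2 and 22.94 RPKM. Cemip, Slc1a6, Ccn5 and Gadd45b had it above the WT range, at 8.36, 6.89, 67.05 and 82 RPKM. These are descriptions with no test.

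In the opposite direction, 5 of the 10 genes furthest below belong to the kallikrein cluster on chromosome 7. Klk1, a tissue kallikrein, had 1626.68, 938.68 and 110.47 RPKM in cKO replicates 1 to 3 and was listed at 0 in every WT library. Klk1b11, Klk1b21, Klk1b26 and Klk1b27 had the same arrangement, and the split of reads within this family of near-identical copies is uncertain. The others were Nptx1, Cysrt1, Otub2, Atp2c2 and Cyp27b1, the enzyme that makes active vitamin D, which had 102.59, 120.51 and 16.1 RPKM in the cKO libraries and 0.06 to 0.2 RPKM in WT. In all 10 genes every cKO library lay above every WT library, which held for 39.2% of all tested genes. That cKO replicate 3 was the cKO library nearest to WT then follows from how these 10 were picked.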
